A study of Mus musculus with 61 samples.

Results

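The genes described here are 33 genes of glycolysis, gluconeogenesis and glycogen metabolism, taken by symbol from the 18754 genes of a count table of mouse liver RNA sequencing. They were chosen by known function, with earlier results of these data in view. All 33 passed the filter on low counts that left 16165 genes for testing. The libraries come from the liver of the 8 inbred founder strains of the Diversity Outbred stock, an outbred mouse population bred from these strains. There were 8 libraries each of strain-129, which the labels call by that number alone, NOD, NZO, PWK and WSB, 7 each of B6 and Cast, and 6 of AJ, which makes 60. The series names a diet high in fat and sugar, and the label of every sample gives 45 percent fat, so all groups share it and no library stands for another diet. The labels give no genotype beyond the strain, no agent, and no age, sex or collection time, and they do not say whether libraries came from different mice. A p-value here thus reflects library-to-library spread, which may be partly technical.

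Glycolysis breaks glucose down to pyruvate, and gluconeogenesis runs most of the same steps backwards, with its own enzymes where glycolysis is irreversible. The liver does both. After a meal it takes glucose up, stores it as glycogen and turns the rest into pyruvate for fat synthesis, and between meals it releases glucose made from glycogen, lactate and amino acids. Insulin and sugar raise liver pyruvate kinase, while glucagon, acting through cAMP, and glucocorticoids raise the genes for phosphoenolpyruvate carboxykinase and glucose-6-phosphatase. The low-Km hexokinases belong largely to cells other than hepatocytes.

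Levels are given as CPM (counts-per-million), the authors' estimated counts divided by the library's total and scaled with TMM factors. Library totals ran between 19.98 M and 69.2 M counted reads, with a median of 30.4 M. Each strain was tested against the unweighted mean of the other 7 in one edgeR quasi-likelihood model, and a gene is called where the Benjamini-Hochberg adjusted p over all 16165 genes is under 0.05. Fold changes are on the log2 scale with an approximate standard error after the sign ±. Levels given as means carry the SD over libraries, and a library is placed above or below the mean of the other strains on the log2 scale. In bulk tissue, fewer cells of a type and less RNA per cell cannot be told apart.

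Several libraries stood apart and are named beside the results they touch. Within Cast, libraries 1, 5 and 6 had 79.5, 66.9 and 99.9 CPM of Slc2a2, and libraries 2, 3, 7 and 8 had 377, 336, 298 and 354 CPM. The same 3 libraries had 2003, 3855 and 3311 CPM of Igfbp1, an insulin-repressed gene of the liver, and the other 4 Cast libraries had 686, 262, 265 and 419.9 CPM. Library 1 of NOD had 269 CPM of muscle creatine kinase Ckm and 419 CPM of skeletal actin Acta1, both at most 24.9 CPM in the other NOD libraries. Library 8 of NZO had 525.5 CPM of S100a8 and 714 CPM of S100a9, both neutrophil genes, at most 3.64 CPM in the other NZO libraries, and 13109 CPM of albumin. In 4 NZO libraries an 18S ribosomal RNA sequence, Rn18s-rs5, took over 10% of reads. Xist, the RNA that coats the inactive X chromosome of female mice, was at 646 to 1421.5 CPM in 31 libraries and at most 8.89 CPM in the other 29, with both kinds in every strain. With Xist as a covariate, 1 of 87 calls of a gene in a strain ended and 11 were gained, 5 of them in NOD. The change in calls over all genes with this covariate was not counted.

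The liver label was checked against marker genes. In a library, the 9 hepatocyte markers in the table summed to between 34374 and 156663 CPM, the 8 sinusoidal endothelial markers to 216 to 490.3 CPM, the 9 stellate cell markers to 240.3 to 609 CPM and the 12 Kupffer cell and macrophage markers to 112 to 1130 CPM. The 7 cholangiocyte markers summed to 25.1 to 167 CPM, the 7 neutrophil and monocyte markers to 1.87 to 1367 CPM, the 10 lymphocyte markers to 0.259 to 12.8 CPM, the 8 skeletal muscle markers to 0.247 to 2495 CPM and the 6 red cell markers to 61.0 to 925 CPM. Of the adipocyte and exocrine pancreas markers only 2 each were in the table, with up to 4581 and 26.3 CPM in sum.

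Of the 33 genes, 31 differed among the 8 strains, against 89.8% of all genes tested. Only Pfkfb1 (adjusted p 0.592) and Mpc2 (adjusted p 0.0825) missed the threshold in that test. The strains accounted for a median of 43.8% of the variance of log2 CPM of these genes, against 49.3% over all genes. The highest strain mean was a median of 1.96 times the lowest, against 2.01 times over all genes. A called change of at least 2-fold in at least 1 strain was found for 9 of the 33 genes, against 34.3% of all genes. The share that differed and the spread of strain means were thus close to the background. The variance share and the share with a 2-fold call were somewhat lower, a difference that was not tested. Among the 9 were Eno3 and Pfkfb3, whose calls ended with single libraries left out. Pgk1 was also among them, and its value in NZO changed sign with a near-identical copy added.

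Against the mean of the other strains, Cast had the most calls, 8 of 33 higher and 13 lower, where 30.8% and 28.8% of all genes were called in these directions. Without Cast 1, 5 and 6 the count in Cast was 6 higher and 5 lower, where 21.9% and 21.6% of all genes were called. NZO had 10 higher and 2 lower, where 26.7% and 19.5% of all genes were called. Without the 4 NZO libraries with much Rn18s-rs5 it had 5 higher and 3 lower, where 20.7% and 13.5% were called. That set keeps NZO 8. Hk1, Pkm and Pck2, among the genes then higher, were not called in NZO when NZO 8 alone was left out (adjusted p 0.879, 0.817 and 0.523). WSB had 6 higher and 7 lower (background 22.6% and 22.4%), and strain-129 had 7 higher and 4 lower (13.7% and 10.9%). PWK had 5 higher and 4 lower (22.5% and 22.7%), NOD had 2 higher and 7 lower (16.7% and 11.6%), B6 had 4 higher and 4 lower (19.4% and 14.7%), and AJ had 2 higher and 2 lower (13.1% and 11%). The median log2 fold change of the 33 genes lay between -0.20 in Cast and 0.12 in WSB, and that of all genes between -0.02 and 0.02. Over the 28 pairs of strains, 318 of 924 gene-pair combinations were called (34.4%), against 37.5% over all genes. Cast and NZO differed in the most of these genes, 20 of 33 (background 59%), and strain-129 and AJ in the fewest, 4 of 33 (background 14.4%).

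**Figure D1:**
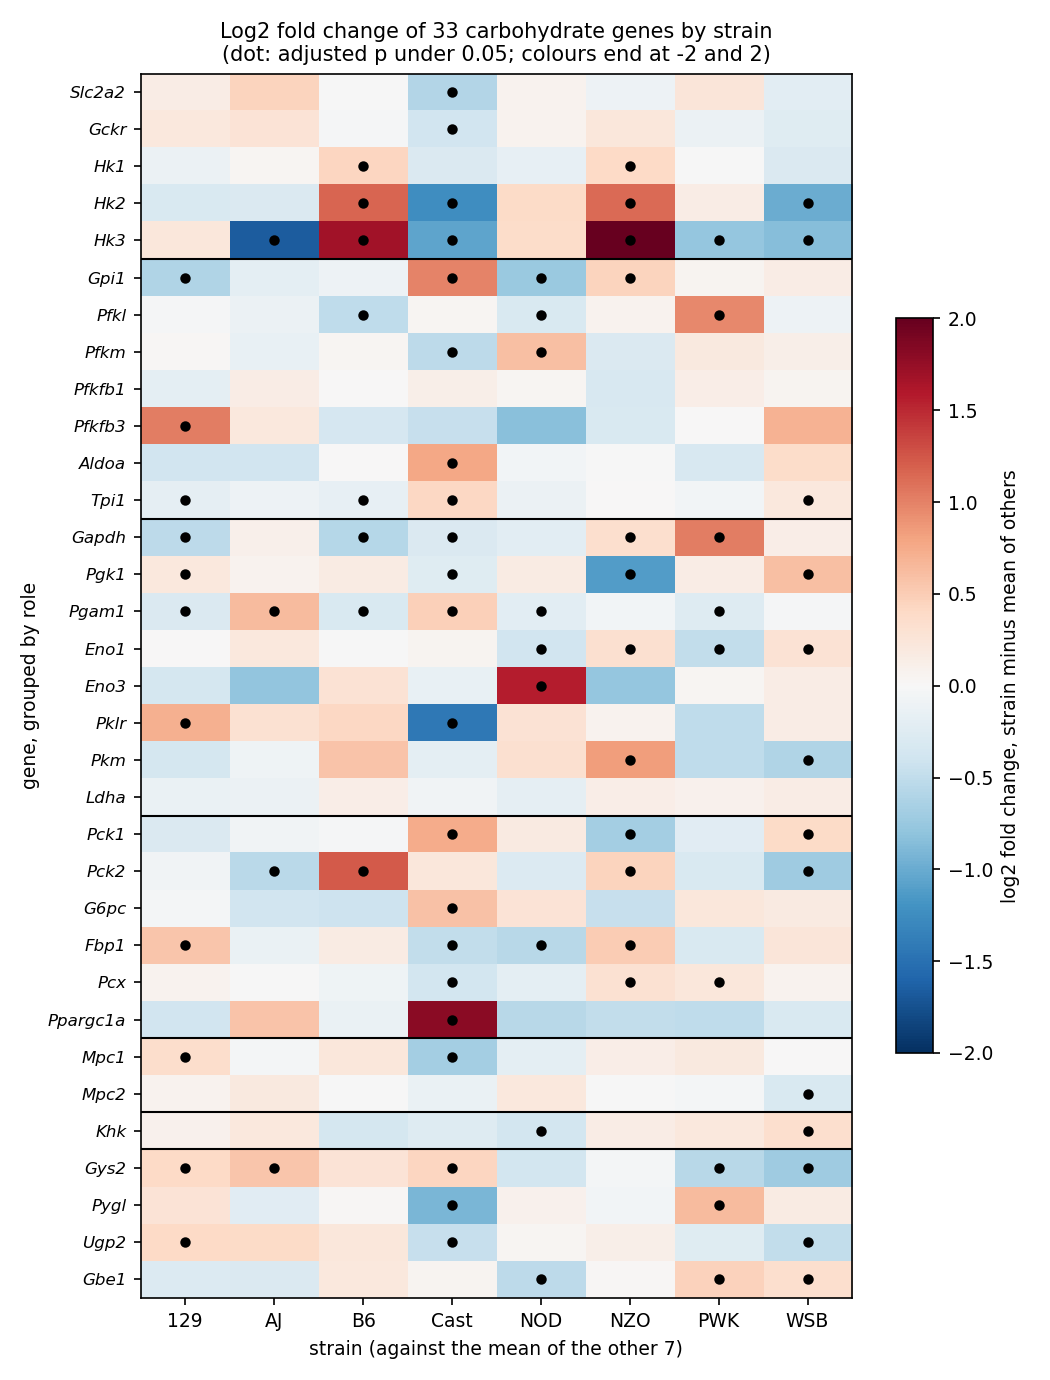
Log2 fold change of each of the 33 genes (rows, grouped by role) in each strain against the mean of the other 7 (columns), with a dot where the adjusted p was under 0.05. The Cast column holds 21 dots and the AJ column 4, and the darkest cells are Hk3 in NZO, B6 and AJ and Ppargc1a in Cast.

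Per length, the gluconeogenic enzymes led. The median over all libraries, in CPM per kilobase of exon, was 808 for Pck1, 473 for Fbp1 and 309 for G6pc, followed by Khk at 199, Ldha at 184 and Pcx at 162. The lowest were Hk1 at 0.511, Hk2 at 0.264 and Pck2 at 0.222. The liver pyruvate kinase Pklr was at 102 and the isoform of other tissues, Pkm, at 2.98. The liver phosphofructokinase Pfkl was at 6.29 and the muscle isoform Pfkm at 4.29. The length used joins the exons of all annotated transcripts of a gene, 6675 bases for Pfkl and 3340 for Pfkm. It can exceed the length of the transcript present, and the order of the genes depends on it. Without division by length, strain means were 32.5 to 79.4 CPM for Pfkl and 11.0 to 21.5 CPM for Pfkm.

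Glucose entry and phosphorylation held 5 genes. Cast was lower in 4 of them, Slc2a2, Gckr, Hk2 and Hk3 (28.8% of all genes), and B6 and NZO were each higher in 3, namely Hk1, Hk2 and Hk3 (19.4% and 26.7% of all genes). Hk2 and Hk3 carried the wider differences of this role, and the 2 hepatocyte genes Slc2a2 and Gckr were called in Cast alone, where both calls ended without Cast 1, 5 and 6.

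Slc2a2 encodes GLUT2, the transporter that moves glucose across the hepatocyte membrane in both directions. Its lowest, median and highest levels were 66.9, 298 and 377 CPM in Cast, against 284, 349 and 488 CPM in strain-129, 394, 429 and 468 CPM in AJ, 218, 311 and 522 CPM in B6 and 249, 356 and 398 CPM in NOD. They were 205, 327 and 377 CPM in NZO, 317, 355 and 455 CPM in PWK and 233, 283 and 424 CPM in WSB. The 3 low Cast libraries lay below every other library, and the other 4 lay within the range of the other strains. The fold change in Cast was -0.58 ± 0.18 (adjusted p 0.00478), and it was -0.0063 (adjusted p 0.98) without Cast 1, 5 and 6. These 3 libraries were chosen after seeing the data and stand out by their low Slc2a2, so the second value is no independent check.

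Gckr encodes a regulatory protein that limits glucose phosphorylation in hepatocytes when glucose is low. Its levels were 107, 153 and 302 CPM in Cast, against 200.2, 259.6 and 293 CPM in strain-129, 234, 265 and 276 CPM in AJ, 185, 219.8 and 238 CPM in B6 and 216, 224 and 259 CPM in NOD, again as lowest, median and highest library. They were 144, 261 and 325 CPM in NZO, 145, 207 and 243 CPM in PWK and 161, 194 and 229 CPM in WSB. Cast 1, 5 and 6 lay below every library of the other strains and the other 4 Cast libraries within their range. The fold change in Cast was -0.39 ± 0.11 (adjusted p 0.00243), and -0.05 (adjusted p 0.764) without Cast 1, 5 and 6.

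Hk2, a low-Km hexokinase that is the main form in muscle and fat, was near the lower end of detection. It had 2.63, 4.25 and 5.45 CPM in B6 and 1.91, 3.37 and 7.87 CPM in NZO, against 0.793, 1.45 and 2.64 CPM in strain-129, 1.13, 1.42 and 2.61 CPM in AJ and 1.06, 1.99 and 4.19 CPM in PWK. The low strains were Cast with 0.386, 0.700 and 1.92 CPM and WSB with 0.553, 1.05 and 1.99 CPM, and NOD had 0.687, 1.04 and 11.9 CPM, its top value in NOD 1. B6 and NZO lay above most libraries of the other strains without being separated from them. Fold changes were 1.17 ± 0.28 in B6 (adjusted p 0.000938), 1.14 ± 0.27 in NZO (adjusted p 0.000431), -1.24 ± 0.36 in Cast (adjusted p 0.00238) and -1.0 ± 0.33 in WSB (adjusted p 0.0112). On the authors' variance-stabilised values, tested with limma, those of NZO, Cast and WSB stayed called, at 0.70, -0.64 and -0.50. Sizes on that scale and fold changes from counts are not directly comparable.

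Hk3, the hexokinase of myeloid white cells, had the widest range of the 33 genes, with strain means 9.83-fold apart. Its levels were 3.62, 7.69 and 30.2 CPM in NZO and 4.63, 8.59 and 10.004 CPM in B6, against 1.71, 3.10 and 5.07 CPM in strain-129 and 2.12, 3.23 and 6.17 CPM in NOD. They were 0.577, 1.75 and 2.99 CPM in PWK, 0.974, 1.70 and 2.46 CPM in WSB, 0.699, 1.45 and 2.32 CPM in Cast and 0.570, 0.773 and 1.86 CPM in AJ. Every NZO and B6 library was above the mean of the other strains, and every AJ, Cast and WSB library below it. The fold change was 2.09 ± 0.20 in NZO (adjusted p 6.69e-13) and 1.68 ± 0.22 in B6 (adjusted p 8.08e-09). It was -1.67 ± 0.32 in AJ (adjusted p 5.04e-05), -1.06 ± 0.28 in Cast (adjusted p 0.001), -0.77 ± 0.26 in PWK (adjusted p 0.011) and -0.86 ± 0.26 in WSB (adjusted p 0.00561). On the variance-stabilised values the calls of NZO, AJ, Cast and WSB held, at 1.29, -0.99, -0.67 and -0.55 on that scale. Without Cast 1, 5 and 6 the Cast value was -0.72 and no longer called (adjusted p 0.0865). In the order of the strains by fitted level, NZO exceeded B6 by 0.36 ± 0.31 (adjusted p 0.464, not called), B6 differed from NOD, next in the order, by 1.15 ± 0.32 (adjusted p 0.00509), and strain-129 from PWK by 0.88 ± 0.32 (adjusted p 0.0236).

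Hk1, the hexokinase found in most tissues, was higher in B6 (6.15 ± 1.55 CPM, 0.43 ± 0.14, adjusted p 0.016) and in NZO (5.99 ± 4.18 CPM, 0.39 ± 0.14, adjusted p 0.0157), with means of 3.96 to 4.86 CPM in the other strains. NZO 8 had 16.2 CPM, and without it the NZO value was -0.0227 (adjusted p 0.879), while it was 0.76 (adjusted p 0.000141) without the 4 NZO libraries with much Rn18s-rs5, a set that leaves NZO 8 in. It was not called on the variance-stabilised values (0.18, adjusted p 0.158). The B6 call ended without B6 3 (adjusted p 0.0876) or B6 4 (adjusted p 0.0623). The Kupffer cell and macrophage marker sums were high in the same 2 strains, at 366 to 939 CPM in B6 (median 670.2) and 279 to 1130 CPM in NZO (median 502), against medians of 234 to 329 CPM in the other 6 strains. Among those 6, medians were 234 CPM in Cast, 245 CPM in WSB, 315 CPM in AJ and 329 CPM in PWK, all called lower in Hk3. They were 256 CPM in strain-129 and 261 CPM in NOD, which had more Hk3. Neutrophil and monocyte markers summed to a median of 14.9 CPM in NZO and 10.01 CPM in B6. In strain-129 and NOD these medians were 5.72 and 5.38 CPM. They were 6.17 CPM in AJ, 3.99 CPM in Cast, 3.69 CPM in PWK and 2.97 CPM in WSB. The part of these cells in the hexokinase differences was not tested.

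**Figure D2:**
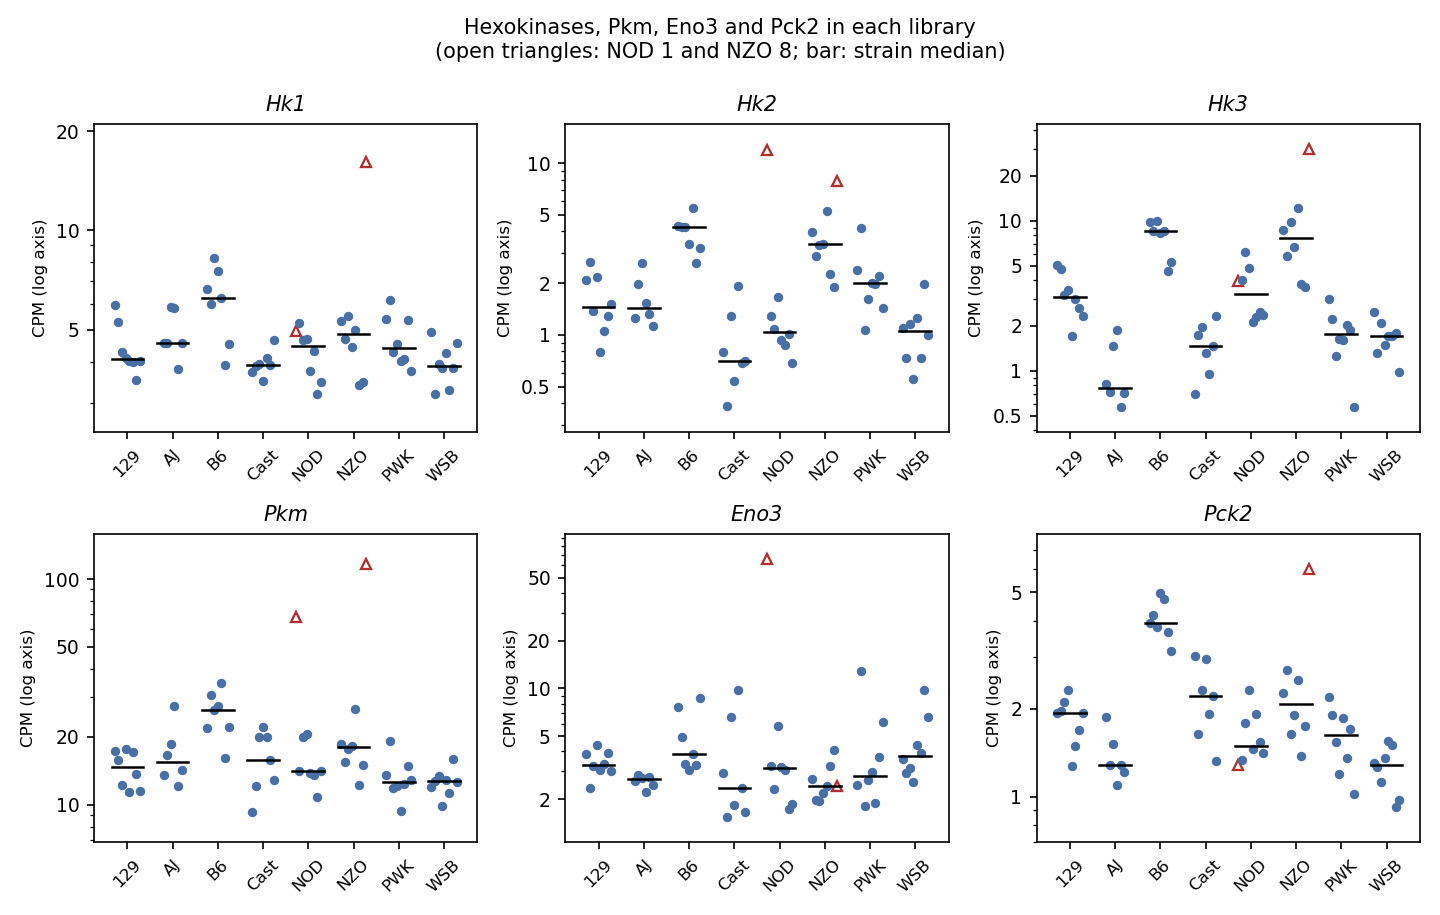
CPM (log axis) of Hk1, Hk2, Hk3, Pkm, Eno3 and Pck2 in every library of the 8 strains, with a bar at each strain's median and open triangles for NOD 1 and NZO 8. In each panel 1 of the triangles is the highest point, NOD 1 for Hk2 and Eno3 and NZO 8 for the other 4, while the B6 points lie high for Hk2, Hk3 and Pck2 without any single library standing out.

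Upper glycolysis, the 7 genes from glucose 6-phosphate to the triose phosphates, had at most 4 calls in a strain, in Cast (59.6% of all genes), with Gpi1, Aldoa and Tpi1 higher and Pfkm lower. Pfkfb1, the liver form of the enzyme that makes and degrades fructose 2,6-bisphosphate, a strong activator of phosphofructokinase, was called in no strain, with means of 25.8 CPM in NZO to 34.5 CPM in AJ.

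Gpi1, glucose-6-phosphate isomerase, was at 352 ± 60.2 CPM in Cast and 253 ± 46.6 CPM in NZO, against 133 ± 19.0 CPM in strain-129 and 123 ± 12.7 CPM in NOD, and means of 171 to 212 CPM in the other 4 strains. The fold change was 0.99 ± 0.12 in Cast (adjusted p 1.21e-10) and 0.45 ± 0.11 in NZO (adjusted p 0.00112), and it was -0.61 ± 0.13 in strain-129 (adjusted p 0.000156) and -0.74 ± 0.13 in NOD (adjusted p 5.47e-06). All libraries of Cast and NZO lay above the mean of the other strains and all of strain-129 and NOD below it. The NZO call ended without the 4 NZO libraries with much Rn18s-rs5 (0.36, adjusted p 0.068).

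Pfkl, the liver subunit of phosphofructokinase, the enzyme that commits glucose to glycolysis, was highest in PWK at 79.4 ± 7.14 CPM and lowest in B6 at 32.5 ± 2.07 CPM. Fold changes were 0.96 ± 0.07 in PWK (adjusted p 1.19e-17), -0.51 ± 0.084 in B6 (adjusted p 2.36e-06) and -0.30 ± 0.078 in NOD (adjusted p 0.00254). PWK differed from NZO, next in the order, by 0.78 ± 0.10 (adjusted p 2.99e-09). The muscle subunit Pfkm was called higher in NOD (21.5 ± 20.4 CPM, 0.60 ± 0.16, adjusted p 0.00348), which rested on NOD 1 with 71.9 CPM, and was -0.0037 (adjusted p 0.986) without it and 0.28 (adjusted p 0.138) on the variance-stabilised values. It was lower in Cast (11.0 ± 3.57 CPM, -0.52 ± 0.19, adjusted p 0.0153), a call that ended without Cast 5 (adjusted p 0.0809) and without Cast 1, 5 and 6 (adjusted p 0.376).

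Pfkfb3, the inducible form of the fructose 2,6-bisphosphate enzyme, spread widely within every strain. Its levels were 5.48, 15.0 and 48.0 CPM in strain-129, against 2.43, 5.31 and 36.9 CPM in AJ, 3.504, 6.55 and 20.9 CPM in B6, 2.83, 6.41 and 17.7 CPM in Cast and 2.44, 4.80 and 10.7 CPM in NOD. They were 2.94, 5.85 and 24.8 CPM in NZO, 3.24, 6.84 and 24.3 CPM in PWK and 4.78, 9.97 and 33.7 CPM in WSB. All 8 strains overlapped. The value in strain-129 was 1.02 ± 0.35 (adjusted p 0.0261), with 6 of 8 libraries above the mean of the others, and it was 0.64 (adjusted p 0.232) without strain-129 library 7 and 0.81 (adjusted p 0.0527) with limma on the variance-stabilised values. Without strain-129 library 3 or strain-129 library 6 it was 0.96 (adjusted p 0.0599) or 0.97 (adjusted p 0.0546).

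Aldoa, the aldolase of most tissues other than liver, was called in Cast at 123 ± 64.5 CPM (0.77 ± 0.18, adjusted p 0.000215). Cast 1, 5 and 6 had 192, 210.4 and 169 CPM and the other 4 Cast libraries 58.0 to 86.9 CPM, and without those 3 the value was 0.02 (adjusted p 0.948). Tpi1, triose phosphate isomerase, differed little in size, with strain means 1.44-fold apart. It was higher in Cast (0.41 ± 0.062, adjusted p 9.53e-08) and WSB (0.21 ± 0.06, adjusted p 0.00316), and lower in strain-129 (-0.19 ± 0.062, adjusted p 0.0214) and B6 (-0.16 ± 0.065, adjusted p 0.0467). The strain-129 call ended in 2 of 60 runs that each left out 1 library, without strain-129 library 4 (adjusted p 0.0537) or strain-129 library 7 (adjusted p 0.0568), and the B6 call in 6 of 60, at adjusted p of up to 0.124.

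**Figure D3:**
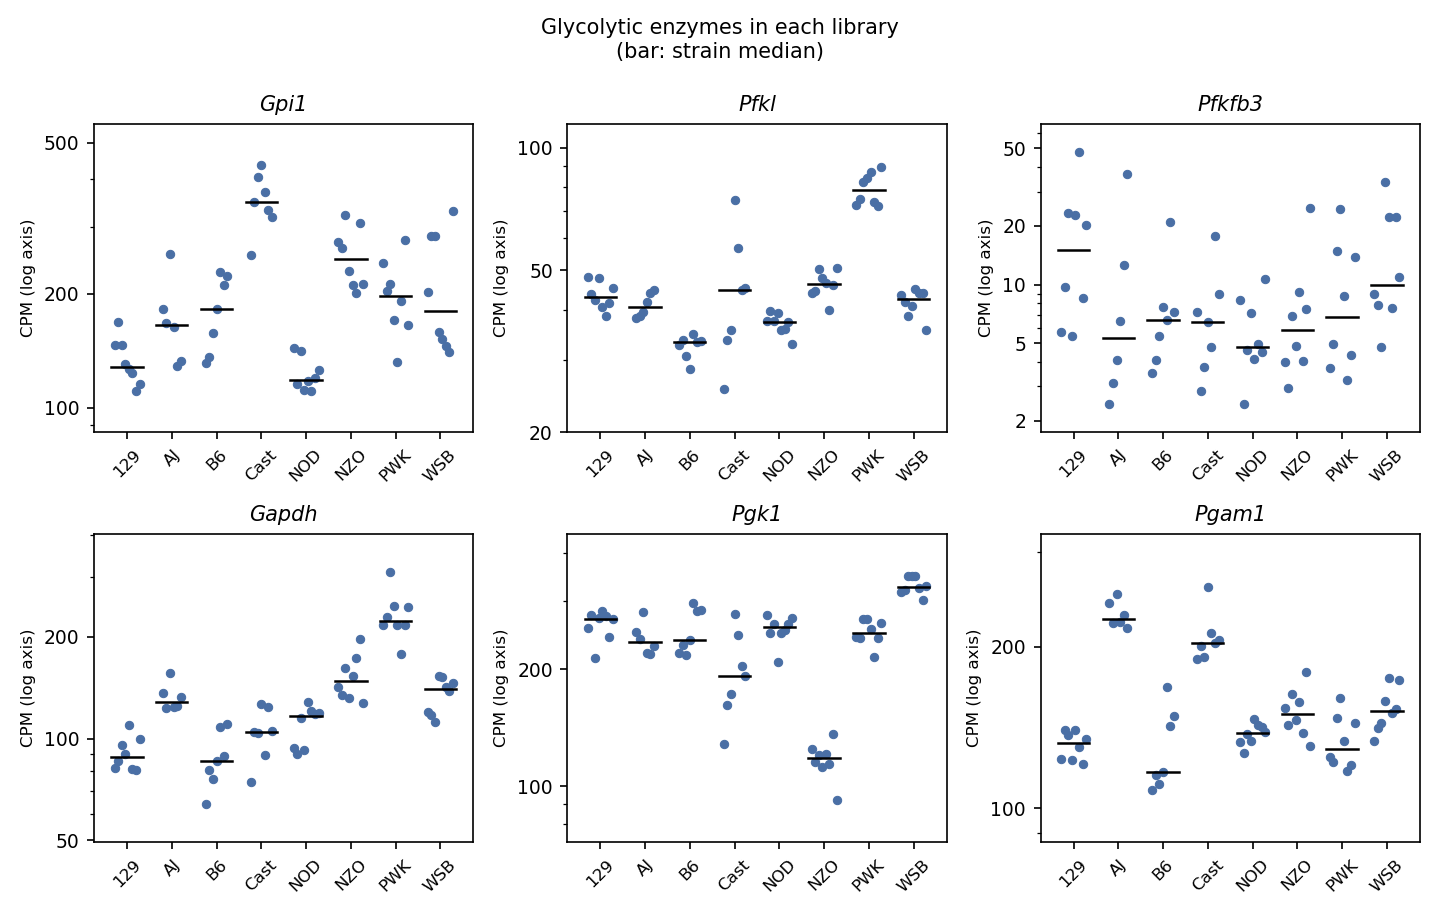
CPM (log axis) of 6 glycolytic enzymes in every library of the 8 strains, with a bar at each strain's median. PWK medians are the highest for Pfkl and Gapdh, where 1 Cast library for Pfkl and 1 NZO library for Gapdh reach into the PWK range, Cast has the highest median for Gpi1 and NZO the lowest for Pgk1, while Pfkfb3 overlaps in all strains.

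Lower glycolysis, the 8 genes from glyceraldehyde 3-phosphate to lactate, had 4 calls each in strain-129, Cast and NZO, where 24.6%, 59.6% and 46.1% of all genes were called. Counted without near-identical copies, Gapdh was highest in PWK, Pgk1 in WSB, Pgam1 in AJ and Eno1 in NZO, and with the copies added the sums of Pgk1 and Eno1 were highest in Cast. Ldha, the lactate dehydrogenase subunit of liver and muscle, was called in no strain, and its strain means, 549.8 CPM in NOD to 674 CPM in WSB, were the closest of the 33 genes.

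Gapdh, glyceraldehyde 3-phosphate dehydrogenase, is often taken as a constant reference gene. Its levels were 178, 223 and 310.2 CPM in PWK and 127, 147 and 197 CPM in NZO, against 123, 128 and 156 CPM in AJ, 112, 140.1 and 153 CPM in WSB and 90.1, 117 and 128.7 CPM in NOD. They were 74.3, 105 and 127 CPM in Cast, 80.8, 88.1 and 109 CPM in strain-129 and 64.1, 85.6 and 110.2 CPM in B6. All 8 PWK libraries lay above every library of AJ, B6, Cast, NOD, WSB and strain-129, and overlapped with the highest of NZO. The fold change was 1.03 ± 0.074 in PWK (adjusted p 8.21e-18) and 0.33 ± 0.079 in NZO (adjusted p 0.000387), and it was -0.58 ± 0.09 in B6 (adjusted p 7.46e-07), -0.52 ± 0.085 in strain-129 (adjusted p 2.08e-06) and -0.30 ± 0.088 in Cast (adjusted p 0.00321). PWK differed from NZO by 0.61 ± 0.11 (adjusted p 3.6e-06). The reference annotation holds 76 near-identical copies of Gapdh, at least 95% identical over at least 300 bases, of which 10 were in the table with 0.76 to 15.5 CPM in sum. With their counts added, PWK was 0.99 (adjusted p 6.64e-17), Cast was -0.20 (adjusted p 0.0483), and WSB was also called, at 0.22 (adjusted p 0.0188). The other copies had no row, among them Gm10359 and Gm12671, identical to Gapdh over 1002 bases. Reads counted to those are not in the sum, so a strain difference in Gapdh transcript and one in read placement cannot be told apart. The NZO call ended without the 4 NZO libraries with much Rn18s-rs5 (0.19, adjusted p 0.159), and the Cast call without Cast 1, 5 and 6 (-0.21, adjusted p 0.0984).

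Pgk1, phosphoglycerate kinase, makes the first ATP of glycolysis. Its gene lies on chromosome X at 106187100 to 106203699 on the plus strand in GRCm38. The annotation also holds Pgk1-rs7 on chromosome 12 at 10898986 to 10900240 on the minus strand, a single stretch of 1255 bases without introns. The annotation holds 4 near-identical copies of Pgk1, among them Gm5537, identical over 1252 bases, and only Pgk1-rs7 had a row in the table used here. All 1255 bases of Pgk1-rs7 occur as 1 run in the Pgk1 transcript and hold 1253 of its 1254 coding bases. The first 120 bases of the coding part they share are shown because they are the same letters in both loci of the reference (coding bases 2 to 121, read from the GENCODE vM21 transcripts on GRCm38):
Pgk1: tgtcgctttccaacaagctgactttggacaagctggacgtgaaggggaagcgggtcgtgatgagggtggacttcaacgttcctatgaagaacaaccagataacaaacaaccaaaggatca
Pgk1-rs7: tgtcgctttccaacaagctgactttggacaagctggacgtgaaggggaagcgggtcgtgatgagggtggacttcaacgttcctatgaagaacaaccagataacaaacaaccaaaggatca

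Pgk1 alone had 92.0, 118 and 136 CPM in NZO and 128, 192 and 278 CPM in Cast, against 302, 326 and 348 CPM in WSB, 214, 270.2 and 282 CPM in strain-129 and 219, 235 and 281 CPM in AJ. The other strains had 218, 238 and 297 CPM in B6, 209, 257 and 275 CPM in NOD and 215, 248 and 270.4 CPM in PWK. Every NZO library lay below every library of the other strains except Cast, and every WSB library above all others. Against the other strains it was at -1.11 ± 0.077 in NZO (adjusted p 3.5e-18), -0.24 ± 0.076 in Cast (adjusted p 0.0046), 0.60 ± 0.066 in WSB (adjusted p 7.66e-11) and 0.21 ± 0.069 in strain-129 (adjusted p 0.0181). Without Cast 1 the Cast value was -0.16 (adjusted p 0.0506).

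Pgk1-rs7 had 170.5 to 217 CPM in NZO and 120.1 to 233 CPM in Cast, against at most 7.80 CPM in any library of the other 6 strains. The strains low in Pgk1 counts were thus the ones in which the copy was counted. The sum of both was 308 ± 26.1 CPM in NZO and 365 ± 86.0 CPM in Cast, against 331 ± 16.0 CPM in WSB and strain means of 241 to 262 CPM in the other 5 strains. With the sum in place of Pgk1, NZO was 0.14 (adjusted p 0.0663), no longer called and of the opposite sign, and Cast was higher at 0.45 ± 0.07 (adjusted p 6.23e-08). WSB stayed higher at 0.28 ± 0.06 (adjusted p 0.000305), AJ at -0.26 (adjusted p 0.0089) and PWK at -0.18 (adjusted p 0.0249) were lower, and strain-129 was not called (-0.11, adjusted p 0.228). How the counting split reads between the 2 loci is not given in the sources used here, so a lower transcript of Pgk1 and a shift of its reads to the copy cannot be told apart.

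**Figure D4:**
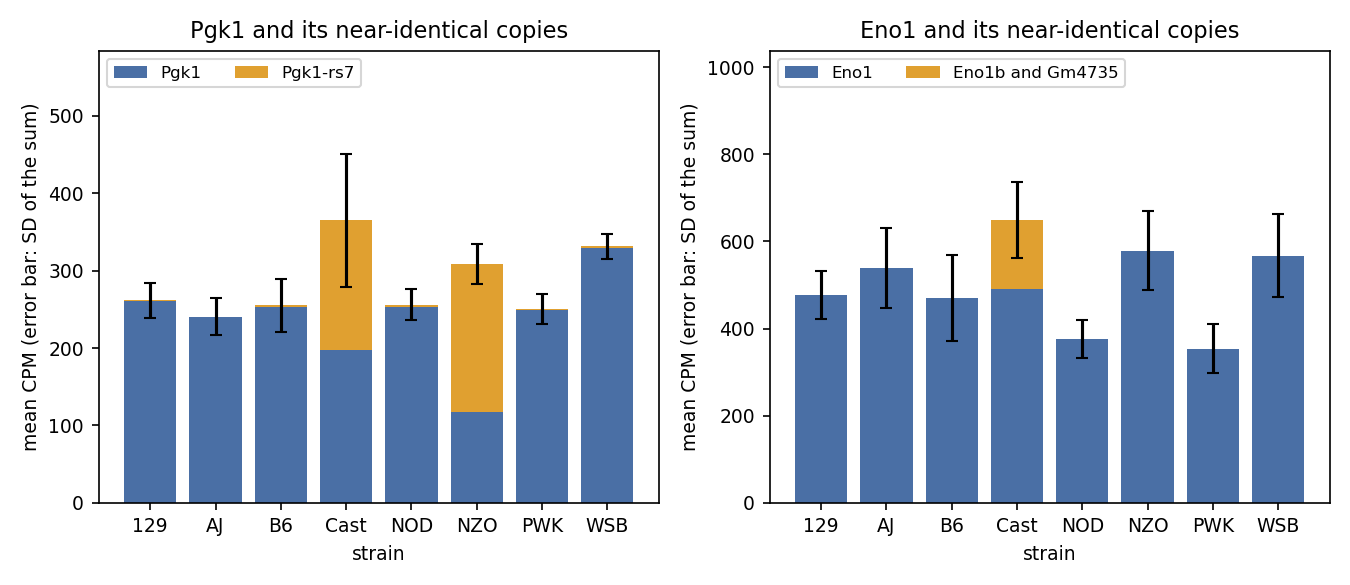
Mean CPM of Pgk1 with Pgk1-rs7 (left) and of Eno1 with Eno1b and Gm4735 (right) in each strain, stacked from 0, with the SD of the sum over libraries as error bar. Copies make up a visible part of the bars only in Cast and NZO for Pgk1 and in Cast for Eno1.

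Eno1, enolase of most tissues including liver, also had near-identical copies counted in Cast, though Eno1 itself was not lower there. Its 2 copies in the table, Eno1b and Gm4735, together had 116 to 181 CPM in Cast, against at most 2.07 CPM in any library of the other 7 strains. Eno1 alone was not called in Cast (0.059 ± 0.09, adjusted p 0.596), and the sum was higher there at 0.47 ± 0.09 (adjusted p 6.31e-06), with 648 ± 87.3 CPM in Cast against sums of 354 to 579 CPM in the other strains. As for Pgk1, transcript level and the placement of reads between loci cannot be told apart here. Eno1 was higher in NZO (578 ± 89.7 CPM, 0.32 ± 0.083, adjusted p 0.00112) and WSB (566 ± 95.03 CPM, 0.29 ± 0.084, adjusted p 0.00354), and lower in PWK (354 ± 55.7 CPM, -0.48 ± 0.089, adjusted p 8.77e-06) and NOD (375 ± 43.5 CPM, -0.39 ± 0.089, adjusted p 0.00054). These 4 calls held with the copies added, and the NZO call ended without the 4 NZO libraries with much Rn18s-rs5 (0.20, adjusted p 0.177).

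Pgam1, phosphoglycerate mutase, was at 230.0 ± 13.1 CPM in AJ and 209 ± 23.3 CPM in Cast, against strain means of 130.2 CPM (B6) to 154 CPM in the other 6 strains. It was higher in AJ (0.64 ± 0.061, adjusted p 1.86e-12) and Cast (0.48 ± 0.058, adjusted p 4.88e-10), in every library of both, and Cast differed from WSB, next in the order, by 0.44 ± 0.08 (adjusted p 4.75e-06). It was lower in B6 (-0.30 ± 0.063, adjusted p 0.000139), strain-129 (-0.29 ± 0.059, adjusted p 0.000148), PWK (-0.25 ± 0.059, adjusted p 0.000298) and NOD (-0.21 ± 0.059, adjusted p 0.00535). None of these 6 calls ended in any of the 60 runs that left out 1 library. The annotation also holds Pgam1-ps2, a copy identical to Pgam1 over 765 bases, which had no row in the table used here. Reads counted to it would not be seen, and leaving out libraries cannot show such a loss.

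Eno3, the enolase of skeletal muscle, had 1.73, 3.13 and 65.5 CPM in NOD, against 2.34, 3.29 and 4.37 CPM in strain-129, 2.21, 2.66 and 2.84 CPM in AJ, 3.07, 3.88 and 8.66 CPM in B6 and 1.54, 2.33 and 9.79 CPM in Cast. The other strains had 1.93, 2.41 and 4.06 CPM in NZO, 1.81, 2.81 and 12.8 CPM in PWK and 2.55, 3.75 and 9.84 CPM in WSB. The highest NOD value came from NOD 1, the library with a skeletal muscle marker sum of 2495 CPM, where the median NOD library had 7.57 CPM. The NOD value was 1.58 ± 0.33 (adjusted p 0.000169) with 2 of 8 libraries above the mean of the others, and it was -0.27 (adjusted p 0.519) without NOD 1 and 0.32 (adjusted p 0.397) with limma on the variance-stabilised values. The same library was the highest of NOD for Hk2, Pfkm, Aldoa and Pkm, and without it none of the 33 genes was called higher in NOD.

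Pklr, the pyruvate kinase of liver and red cells, carries out the last step of glycolysis and is raised by sugar and insulin. Its levels were 10.7, 102 and 268 CPM in Cast, against 108, 210.4 and 391 CPM in PWK, 90.6, 360.1 and 482 CPM in NZO, 211, 319 and 507 CPM in WSB and 184, 423 and 508 CPM in NOD. They were 306, 331 and 557 CPM in AJ, 128, 468 and 586 CPM in B6 and 343, 446 and 616 CPM in strain-129. All 7 Cast libraries lay below the mean of the other strains and all 8 of strain-129 above it, though each strain overlapped others. In log2 terms the change was -1.43 ± 0.30 in Cast (adjusted p 5.65e-05) and 0.71 ± 0.24 in strain-129 (adjusted p 0.0222). Without Cast 1, 5 and 6 Cast stayed called at -0.90 (adjusted p 0.0141), and strain-129 was not called without strain-129 library 6 (0.64, adjusted p 0.0591) or strain-129 library 9 (0.66, adjusted p 0.0541). Cast differed from PWK, next in the order, by 0.80 ± 0.35 (adjusted p 0.0499). Exons of Pklr share 711 bases, 22% of its exon bases, with Hcn3 on the opposite strand, which had a mean count of 505 against 10200 for Pklr. The expression of Pkm, the pyruvate kinase of most other tissues, was 30.01 ± 35.1 CPM in NZO (0.84 ± 0.22, adjusted p 0.00147), where NZO 8 alone had 116 CPM, and 0.06 (adjusted p 0.817) without that library. It was 1.39 (adjusted p 2.23e-05) without the 4 NZO libraries with much Rn18s-rs5 and 0.43 (adjusted p 0.0751, not called) on the variance-stabilised values. In WSB it was 12.6 ± 1.75 CPM (-0.59 ± 0.25, adjusted p 0.0477), a call that ended in 34 of the 60 runs that left out 1 library, at adjusted p of up to 0.0954.

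Gluconeogenesis held 6 genes, and Cast was called in 5 of them, with Pck1, G6pc and Ppargc1a higher and Fbp1 and Pcx lower, where 59.6% of all genes were called. The higher calls held without Cast 1, 5 and 6, though for Ppargc1a most of the Cast libraries then left lay within the range of the other strains. The lower calls ended, with Fbp1 then at -0.04 (adjusted p 0.824) and Pcx at -0.23 (adjusted p 0.0827). NZO was called in 4 (46.1% of all genes), with Fbp1, Pcx and Pck2 higher and Pck1 lower. The bases upstream of the 3 genes higher in Cast are shown because the Pck1 and G6pc promoters are textbook targets of cAMP and insulin control and Ppargc1a is itself induced by cAMP. Capitals mark matches, on either strand, to TGACG, the core of the cAMP response element, or CAAAACA, a forkhead or insulin response sequence, in the 250 bases before the RefSeq start (RefSeq, GRCm38.p6, given in the direction of transcription):
Pck1, chr2:173152823-173153072, plus strand: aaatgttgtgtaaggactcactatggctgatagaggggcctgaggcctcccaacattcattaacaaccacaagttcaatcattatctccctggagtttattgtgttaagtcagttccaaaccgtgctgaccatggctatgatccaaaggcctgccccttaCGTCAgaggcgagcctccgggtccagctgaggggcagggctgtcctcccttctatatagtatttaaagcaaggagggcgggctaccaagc
G6pc, chr11:101367466-101367715, plus strand: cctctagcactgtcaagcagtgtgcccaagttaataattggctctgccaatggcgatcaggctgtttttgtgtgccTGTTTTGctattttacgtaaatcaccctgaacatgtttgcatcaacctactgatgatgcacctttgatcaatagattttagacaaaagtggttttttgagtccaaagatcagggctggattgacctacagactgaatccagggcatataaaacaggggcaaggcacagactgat
Ppargc1a, chr5:51567726-51567975, minus strand: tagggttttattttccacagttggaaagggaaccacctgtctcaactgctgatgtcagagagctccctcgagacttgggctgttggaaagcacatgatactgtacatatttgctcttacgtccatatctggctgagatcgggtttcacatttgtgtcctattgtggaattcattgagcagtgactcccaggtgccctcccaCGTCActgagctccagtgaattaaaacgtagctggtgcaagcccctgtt

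Over all promoters in the table, TGACG occurred in 17.8% of 32851 and CAAAACA in 5.56%, and over the 50 promoters of the 32 genes found there in 18% and 6%. TGACG was found before 7 genes, Hk2, Khk, Ldha, Pck1, Pfkfb3, Ppargc1a and Pygl, and the full palindrome TGACGTCA, which contains it, only before Ldha (1.55% of all promoters). Of the 7, Pck1 and Ppargc1a were called higher in Cast, Hk2 and Pygl were called lower, and the others were not called there. CAAAACA was found before G6pc, called higher in Cast, Gckr, called lower, and Pck2, not called. The E box CACGTG was found before 5 genes (10% against 6.02% of all promoters), and TGTTTAC, another forkhead sequence, before none (3.17% of all). A match is a run of letters in the reference only, and the sequence of Cast was not examined. Gys2 was not in the promoter table.

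Pck1, cytosolic phosphoenolpyruvate carboxykinase, is the classical control point of gluconeogenesis. It had 3158, 3834 and 5800.0 CPM in Cast and 2770.0, 3638 and 3853 CPM in WSB, against 1655, 3258 and 4806 CPM in NOD, 1235, 2774 and 3627 CPM in B6 and 1927, 2310.0 and 4112 CPM in AJ. It had 1426, 2496 and 3215 CPM in PWK, 1178, 2198 and 3788 CPM in strain-129 and 1271, 1932 and 2550.5 CPM in NZO. Cast libraries all lay above the mean of the other strains and NZO libraries all below it, with overlap in both cases. The change was 0.75 ± 0.16 in Cast (adjusted p 7.37e-05) and -0.67 ± 0.17 in NZO (adjusted p 0.000974). In Cast it was 0.64 (adjusted p 0.0103) without libraries 1, 5 and 6. WSB was at 0.38 ± 0.16 (adjusted p 0.0446), a call that ended in 13 of the 60 runs that left out 1 library, at adjusted p of up to 0.0765.

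G6pc, the catalytic subunit of glucose-6-phosphatase, releases free glucose from hepatocytes. It had 528, 1222 and 1558 CPM in Cast, against 448, 823 and 1389.8 CPM in NOD, 555, 886 and 1209 CPM in PWK, 490.0, 754 and 1873 CPM in WSB and 567, 651 and 1279.7 CPM in strain-129. It had 338, 660.0 and 773 CPM in B6, 257, 533 and 1196 CPM in AJ and 372, 524 and 976 CPM in NZO. Strains overlapped, and 6 of 7 Cast libraries lay above the mean of the others. The value in Cast was 0.58 ± 0.20 (adjusted p 0.0113), and 0.63 (adjusted p 0.04) without Cast 1, 5 and 6.

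Ppargc1a encodes PGC-1alpha, a coactivator that raises gluconeogenic and mitochondrial genes in fasting. It had 12.5, 37.4 and 108 CPM in Cast, against 18.7, 21.3 and 31.5 CPM in AJ, 10.5, 14.3 and 17.6 CPM in B6, 4.35, 12.2 and 20.8 CPM in strain-129 and 8.18, 12.7 and 19.97 CPM in WSB. It had 8.45, 10.8 and 17.7 CPM in NZO, 6.34, 11.6 and 17.1 CPM in PWK and 5.62, 9.01 and 25.0 CPM in NOD. Within Cast, libraries 1, 2, 5 and 6 had 108, 60.2, 37.4 and 86.7 CPM, above every library of the other strains, and libraries 3, 7 and 8 had 15.4, 13.1 and 12.5 CPM, within their range. The fold change in Cast was 1.80 ± 0.22 (adjusted p 5.71e-10), and 0.90 (adjusted p 0.00566) without Cast 1, 5 and 6. Of the Cast libraries then left, only library 2 lay above the other strains, and leaving it out as well was not tested. Cast differed from AJ, next in the order, by 1.07 ± 0.36 (adjusted p 0.0108).

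**Figure D5:**
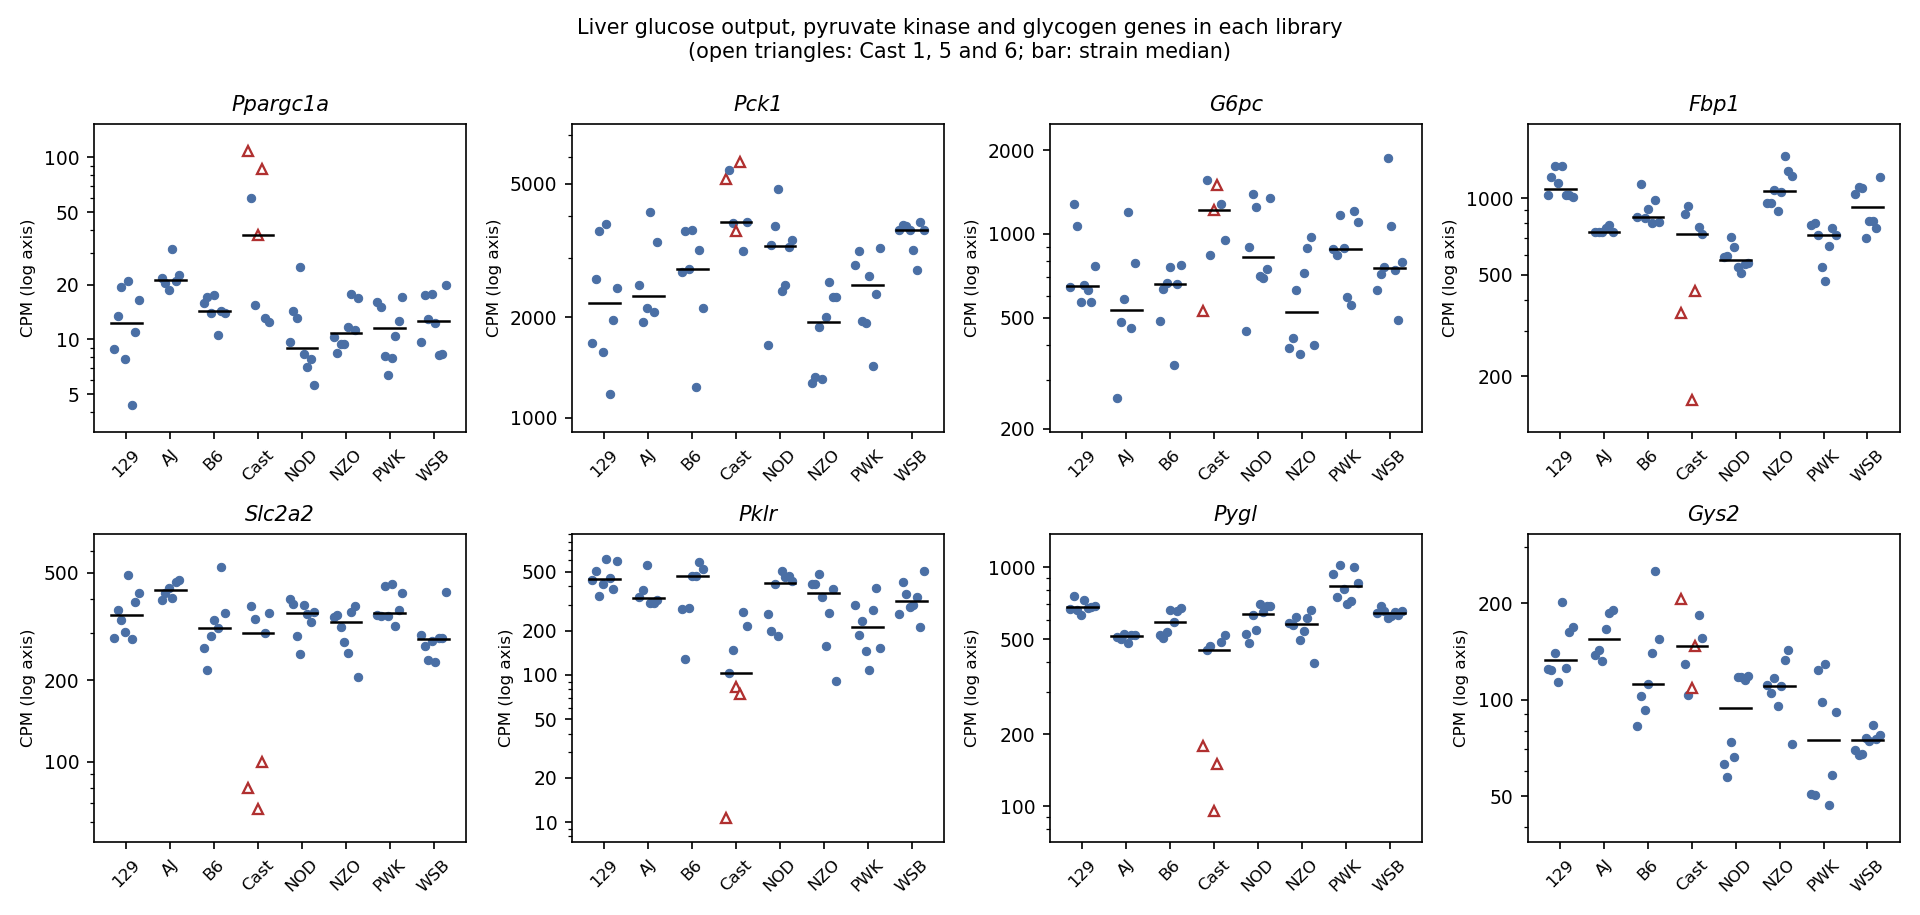
CPM (log axis) of 8 liver genes of glucose output, glycolysis and glycogen in every library, with a bar at each strain's median and open triangles for Cast 1, 5 and 6. These 3 libraries lie below all others for Slc2a2, Fbp1 and Pygl (95.5 to 178 CPM of Pygl), while the Cast points for Pck1 and G6pc do not split that way.

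Fbp1, fructose-1,6-bisphosphatase, reverses the phosphofructokinase step. It had 1009, 1086 and 1338 CPM in strain-129 and 890.4, 1067 and 1458 CPM in NZO, against 699, 926 and 1207 CPM in WSB, 798, 839 and 1137 CPM in B6 and 734, 738 and 781 CPM in AJ. It had 474, 715 and 800.2 CPM in PWK, 162, 722 and 933 CPM in Cast and 507, 571 and 703 CPM in NOD. All libraries of strain-129 and NZO lay above the mean of the other strains and all of NOD below it. Against the other strains it was at 0.55 ± 0.12 in strain-129 (adjusted p 0.000538), 0.51 ± 0.13 in NZO (adjusted p 0.000606) and -0.55 ± 0.14 in NOD (adjusted p 0.0015). Cast was at -0.49 ± 0.14 (adjusted p 0.00309), with 353, 162 and 431 CPM in libraries 1, 5 and 6 and 722 to 933 CPM in the other 4, and at -0.04 (adjusted p 0.824) without those 3. Without Cast 5 alone it was -0.32 (adjusted p 0.0194). The NZO call ended without the 4 NZO libraries with much Rn18s-rs5 (0.42, adjusted p 0.0569).

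Pck2, the mitochondrial carboxykinase and a target of the amino acid response, was low everywhere. It had 3.15, 3.94 and 4.96 CPM in B6 and 1.38, 2.08 and 6.01 CPM in NZO, against 1.33, 2.22 and 3.03 CPM in Cast, 1.27, 1.94 and 2.32 CPM in strain-129 and 1.28, 1.49 and 2.32 CPM in NOD. It had 1.02, 1.62 and 2.19 CPM in PWK, 1.09, 1.28 and 1.88 CPM in AJ and 0.921, 1.28 and 1.55 CPM in WSB. All 7 B6 libraries lay above every library of the other strains but NZO 8, and B6 differed from NZO, next in the order, by 0.69 ± 0.20 (adjusted p 0.00795). In log2 terms the change was 1.23 ± 0.14 in B6 (adjusted p 2.93e-10), -0.71 ± 0.16 in WSB (adjusted p 0.00027) and -0.55 ± 0.18 in AJ (adjusted p 0.0189). The AJ call ended without AJ 4 (adjusted p 0.0668) or AJ 8 (adjusted p 0.0515). In NZO the value was 0.44 ± 0.14 (adjusted p 0.00914), 0.11 (adjusted p 0.523) without NZO 8, 0.85 (adjusted p 3.96e-05) without the 4 NZO libraries with much Rn18s-rs5 and 0.19 (adjusted p 0.0737) on the variance-stabilised values. On those values the B6, WSB and AJ calls held at 0.79, -0.39 and -0.31.

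Pcx, pyruvate carboxylase, opens gluconeogenesis from pyruvate and also refills the citric acid cycle. It was lower in Cast (612 ± 95.3 CPM, -0.37 ± 0.09, adjusted p 0.000384), and higher in NZO (917 ± 111 CPM, 0.30 ± 0.08, adjusted p 0.00172) and PWK (874 ± 114 CPM, 0.22 ± 0.081, adjusted p 0.022). The Cast call ended without Cast 1, 5 and 6 (-0.23, adjusted p 0.0827). The NZO call ended without the 4 NZO libraries with much Rn18s-rs5 (0.24, adjusted p 0.0838) and with Rn18s-rs5 as a covariate (0.22, adjusted p 0.053), and the PWK call without PWK 2 (adjusted p 0.075) or PWK 9 (adjusted p 0.0504).

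Mpc1 and Mpc2 together form the mitochondrial pyruvate carrier, through which pyruvate enters the matrix. Mpc1 was lower in Cast (104 ± 29.1 CPM, -0.68 ± 0.15, adjusted p 0.000121) in all 7 libraries, and Cast differed from NOD, next in the order, by 0.42 ± 0.18 (adjusted p 0.0484). In strain-129 it was higher (194 ± 20.8 CPM, 0.35 ± 0.13, adjusted p 0.0444), a call that ended in 6 of the 60 runs that left out 1 library, at adjusted p of up to 0.0903. Mpc2 did not pass the test among all strains and was called lower in WSB (112 ± 33.4 CPM, -0.31 ± 0.11, adjusted p 0.0233), a call that ended in 4 of the 60 runs, at adjusted p of up to 0.0902. In NOD, the 4 libraries with high Xist had 163 to 189 CPM of Mpc1 and the 4 with low Xist 90.0 to 105 CPM, and with Xist as a covariate Mpc1 was called lower in NOD (-0.24, adjusted p 0.0255). Khk, ketohexokinase, phosphorylates fructose, the other sugar of sucrose. It was higher in WSB (419 ± 65.1 CPM, 0.33 ± 0.13, adjusted p 0.0347) and lower in NOD (275 ± 69.4 CPM, -0.36 ± 0.14, adjusted p 0.0408), against strain means of 276 to 389.7 CPM in the other 6 strains. The WSB call ended in 3 of the 60 runs (adjusted p of up to 0.0999) and the NOD call in 4 (up to 0.116) and without the 4 NZO libraries with much Rn18s-rs5 (adjusted p 0.0682).

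The 4 glycogen genes had 3 calls each in Cast, PWK and WSB, where 59.6%, 45.2% and 45% of all genes were called. Cast had Gys2 higher and Pygl and Ugp2 lower, PWK had Pygl and Gbe1 higher and Gys2 lower, and WSB had Gbe1 higher and Gys2 and Ugp2 lower. No strain had all 4 called, and B6 and NZO had none.

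Gys2, the glycogen synthase of liver, had 132, 154 and 190.3 CPM in AJ, 103, 147 and 206 CPM in Cast and 114, 133 and 202 CPM in strain-129, against 83.0, 112 and 252 CPM in B6 and 72.7, 110.5 and 143 CPM in NZO. It had 57.3, 94.3 and 118 CPM in NOD, 46.9, 74.9 and 129.5 CPM in PWK and 67.3, 74.7 and 83.6 CPM in WSB. Every AJ library lay above every WSB library, and every NOD and PWK library below the lowest AJ library. The change was 0.56 ± 0.16 in AJ (adjusted p 0.00719), -0.71 ± 0.16 in WSB (adjusted p 0.000227) and -0.55 ± 0.16 in PWK (adjusted p 0.00286). Cast was at 0.43 ± 0.15 (adjusted p 0.0124), not called without Cast 1 (0.34, adjusted p 0.0734) or without Cast 1, 5 and 6 (0.40, adjusted p 0.0963). In strain-129 the value was 0.40 ± 0.14 (adjusted p 0.0324), and the call ended without strain-129 library 6 (adjusted p 0.125), strain-129 library 8 (adjusted p 0.068) or strain-129 library 9 (adjusted p 0.0734).

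Pygl, the glycogen phosphorylase of liver, frees glucose 1-phosphate from glycogen. It had 703, 838 and 1020.3 CPM in PWK and 95.5, 449 and 522 CPM in Cast, against 634, 681 and 758 CPM in strain-129, 613, 646 and 691 CPM in WSB and 482, 639.6 and 699.7 CPM in NOD. It had 504, 589 and 675 CPM in B6, 396, 578 and 662 CPM in NZO and 482, 516 and 523 CPM in AJ. All 8 PWK libraries lay above the mean of the other strains and all 7 Cast libraries below it. Against the other strains it was at 0.63 ± 0.13 in PWK (adjusted p 3.64e-05) and -0.91 ± 0.15 in Cast (adjusted p 1.03e-06). Without Cast 1, 5 and 6, which had 178, 95.5 and 150.2 CPM, Cast was still called at -0.38 (adjusted p 0.00047). Cast differed from AJ, next in the order, by 0.60 ± 0.19 (adjusted p 0.00782).

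Ugp2 makes UDP-glucose, the donor for glycogen synthesis. It was lower in WSB (255 ± 39.9 CPM, -0.49 ± 0.16, adjusted p 0.0127) and Cast (260.0 ± 94.8 CPM, -0.46 ± 0.17, adjusted p 0.0204), and higher in strain-129 (439 ± 173 CPM, 0.41 ± 0.15, adjusted p 0.0427). The Cast call ended without Cast 1, 5 and 6 (adjusted p 0.376) and without Cast 1 (adjusted p 0.101) or Cast 6 (adjusted p 0.082), and in strain-129 the value was 0.25 (adjusted p 0.277) without strain-129 library 6, with the call also ending without strain-129 library 3, 8 or 9 and on the variance-stabilised values (adjusted p 0.106). Gbe1, the branching enzyme, was higher in PWK (171 ± 27.8 CPM, 0.46 ± 0.14, adjusted p 0.00444) and WSB (159 ± 19.1 CPM, 0.33 ± 0.14, adjusted p 0.0412), and lower in NOD (94.2 ± 21.3 CPM, -0.53 ± 0.15, adjusted p 0.00454). The WSB call ended in 5 of the 60 runs that left out 1 library, at adjusted p of up to 0.108.

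Other genes of these pathways were counted from 8 lists, and each list is given for the strain with the most calls, or for 1 of 2 strains where they tied, as Cast and NZO did for glycogen, B6 and Cast for pyruvate dehydrogenase and PWK and WSB for fructose and galactose. Of 17 further glycolytic isoforms, transporters and enzymes tested, 5 were higher and 4 lower in Cast. They include Pfkfb2, another bifunctional fructose 2,6-bisphosphate enzyme, at 79.9 ± 46.0 CPM in Cast against 21.3 to 25.6 CPM elsewhere (1.76 ± 0.14, adjusted p 3.05e-16), and at 39.7 to 51.1 CPM without Cast 1, 5 and 6 (0.97, adjusted p 2.61e-07).

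Of 17 genes of the shuttles and glucose release, 7 were higher and 5 lower in Cast, among them the glutamate carrier Slc25a22 (479 ± 253 CPM in Cast against 140 to 299 CPM, 1.35 ± 0.15, adjusted p 8.92e-11) and G6pc3, the glucose-6-phosphatase of most tissues (0.60 ± 0.08, adjusted p 1.84e-08). Of 24 glycogen enzymes and regulators, 5 were higher and 7 lower in Cast, among them Phka2, the liver alpha subunit of phosphorylase kinase (11.4 ± 3.75 CPM in Cast against 18.6 to 33.1 CPM, -1.21 ± 0.12, adjusted p 4.07e-13), and the kinase Gsk3a (0.59 ± 0.06, adjusted p 1.59e-11). Without Cast 1, 5 and 6 these 4 calls held, at 0.95 for Slc25a22, 0.37 for G6pc3, -0.88 for Phka2 and 0.31 for Gsk3a (adjusted p of at most 0.00284). Of 22 fasting, cAMP and glucocorticoid regulators, 0 were higher and 11 lower in NZO (26.7% and 19.5% of all genes), among them the transcription factors Creb3l3 (-0.37 ± 0.10, adjusted p 0.00174) and Foxo1 (43.2 ± 12.1 CPM in NZO against 56.6 to 82.8 CPM, -0.60 ± 0.16, adjusted p 0.00176). The Foxo1 call ended without the 4 NZO libraries with much Rn18s-rs5 (-0.53, adjusted p 0.0624).

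Of 10 pentose phosphate genes, 5 were higher and 3 lower in NZO, among them G6pdx, which opens the pathway (16.5 ± 11.5 CPM in NZO against 4.26 to 9.11 CPM, 1.35 ± 0.21, adjusted p 3e-07), and Pgd, its next dehydrogenase (0.94 ± 0.16, adjusted p 2.03e-06). G6pdx was at 0.97 (adjusted p 0.000133) without NZO 8, which had 42.4 CPM. Of 12 genes of the pyruvate dehydrogenase complex and its kinases and phosphatases, 3 were higher and 3 lower in B6, among them the subunits Pdha1 (0.37 ± 0.10, adjusted p 0.00337) and Pdhx (-0.53 ± 0.09, adjusted p 8.35e-06). Within B6, Pdha1 was at 156 to 164 CPM in libraries 6, 7 and 8, which had low Xist. It was at 81.8 to 116 CPM in libraries 1 to 4, which had high Xist. Pdhx split the same way, at 21.8 to 22.7 CPM in B6 libraries 6, 7 and 8 and 15.1 to 17.1 CPM in libraries 1 to 4. Its means in the other strains were 22.6 to 37.5 CPM. Of 11 genes of fructose and galactose entry, 4 were higher and 3 lower in PWK, among them Galt, of the galactose pathway (0.40 ± 0.08, adjusted p 1.66e-05), and the aldose reductase Akr1b3 (-0.74 ± 0.12, adjusted p 1.34e-06). Of 14 carbohydrate and insulin regulators, 5 were higher and 3 lower in Cast, among them the liver X receptor Nr1h3 (0.41 ± 0.06, adjusted p 2.09e-08) and the kinase Akt2 (0.26 ± 0.04, adjusted p 3.31e-08). The background shares, higher and lower, were 30.8% and 28.8% of all genes in Cast, 26.7% and 19.5% in NZO, 19.4% and 14.7% in B6 and 22.5% and 22.7% in PWK.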

How the data were processed

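Liver RNA of 61 labelled samples was measured by RNA sequencing, and 60 libraries were analysed. The sample B6 5 has no column and was not analysed here, and 1 column that matched no sample was not used. The authors deposited expected counts for each gene without normalisation. Of these values 21% were not whole, and they were rounded to whole numbers, although whole counts had been assumed when the tests were written down. The authors also deposited variance-stabilised log2 values, used only in an alternative. GRCm38 and DESeq2 are named in the submitters' processing notes. The sources used here name no aligner, counter, annotation release or strand setting, so reads of near-identical copies, and of genes that overlap on either strand, may be split or shared. Exons of 13 of the 33 genes overlap another gene, for 9 of them a gene of the table.

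Genes were filtered with filterByExpr by strain, scaled with TMM and fitted in edgeR 4.0.16 (R 4.3.3) with strain as the only term. The quasi-likelihood test was used among the 8 strains, for each strain minus the unweighted mean of the other 7, and for the 28 pairs, with Benjamini-Hochberg adjustment over all 16165 genes within each contrast. Standard errors were derived from the F statistic, as the size of the log2 fold change over the root of F. The procedure was tested on simulated data. Copies were found with BLAST 2.17.0 (at least 95% identity over at least 300 bases). The alternatives used DESeq2 1.42.0, DESeq2 size factors in edgeR, limma 3.58.1 on the deposited log2 values, no filter, Xist or Rn18s-rs5 as covariate, the sample number as a block, and each library left out. The addition of copies and the removal of 3 Cast or 4 NZO libraries were chosen after seeing the data. The 33 genes and the gene lists were chosen with earlier results of these data known. Full values are given for genes called with at least a 2-fold change in a strain and for 8 liver genes fixed by name, and list genes are the 2 with the smallest p in the strain with the most calls, of which 1 is not reported here.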

Additional observations from a re-analysis of the deposited data

Results flagged for a closer look

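In each strain the highest and lowest library of each of the 33 genes was compared with its nearest neighbour, as a share of the strain's range of log2 CPM. Of 264 groups, 24 had a library past Dixon's 95% critical value, and chance flags about 1 in 20 groups.

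NZO 8 was set apart for 6 genes. It was high for Hk1 (16.2 CPM, strain median 4.84 CPM), Pkm (116 CPM, median 18 CPM) and Pck2 (6.01 CPM, median 2.08 CPM). It was low for Pfkm (6.92 CPM, median 12.9 CPM), Khk (178 CPM, median 393 CPM) and Gbe1 (53.7 CPM, median 146 CPM). NOD 1 was high for 5 genes, with 11.9 CPM of Hk2 (median 1.04 CPM), 71.9 CPM of Pfkm (median 14.9 CPM), 237 CPM of Aldoa (median 52.9 CPM), 65.5 CPM of Eno3 (median 3.13 CPM) and 68.1 CPM of Pkm (median 14.1 CPM).

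In AJ, library 3 was high for Eno1 (720 CPM, median 511 CPM) and Pklr (557 CPM, median 331 CPM). AJ 4 was high for Ppargc1a (31.5 CPM, median 21.3 CPM), and AJ 6 was high for Ugp2 (601 CPM, median 415 CPM) and low for Pcx (696 CPM, median 773 CPM). In WSB, library 9 was high for Slc2a2 (424 CPM, median 283 CPM) and Gbe1 (202 CPM, median 157 CPM), and library 6 for Ldha (997 CPM, median 633 CPM). Cast 5 was high for Pgam1 (259 CPM, median 203 CPM) and Cast 1 low for Pklr (10.7 CPM, median 102 CPM). Library 7 of strain-129 was high for Aldoa (75.4 CPM, median 60.6 CPM), NOD 3 for Gckr (259 CPM, median 224 CPM), and NOD 4 was low for Pgk1 (209 CPM, median 257 CPM).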

How the results depend on the processing

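Over 10 other settings, the number of genes that differ among strains, the pairwise count and the counts of 5 strains stayed within 1.5 times. The exceptions were NOD with Xist as covariate (14 called, against 9) and, without Cast 1, 5 and 6, AJ (7, against 4) and Cast (11, against 21). Among these other settings, the share of all genes called was counted only for Cast and NZO with their own libraries left out. Whether the gains in NOD and AJ were particular to these genes was not tested. By direction, genes higher in AJ were 4 with Xist, with the block or without those Cast libraries (against 2), genes higher in NOD 4 with Xist and 0 on the variance-stabilised values (against 2), genes lower in Cast 5 (against 13), genes higher in NZO 5 without 4 libraries (against 10) and genes lower in NZO 1 with copies added (against 2). Pgk1 in NZO reversed to 0.14 with its copy added, and Eno3 in NOD to -0.27 without NOD 1 (range over left-out libraries -0.27 to 1.74).

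With each of 60 libraries left out in turn, the count among strains ran 30 to 32 and the pairwise count 304 to 338. The strain counts ran 6 to 12 in strain-129 (6 without its library 6, 7 without 9), 3 to 6 in AJ, 6 to 10 in B6, 18 to 22 in Cast, 8 to 11 in NOD, 10 to 13 in NZO, 8 to 11 in PWK and 8 to 14 in WSB (8 without WSB 6). Genes higher in strain-129 (7) were 4, 2 and 3 without its libraries 3, 6 and 9, and genes higher in WSB (6) were 3 without WSB 3, 6 or 9. Genes lower in AJ (2) were 1 without AJ 4 or 8, and genes higher in AJ 4 without Cast 2. Of 87 gene and strain calls, 25 ended in at least 1 of these runs and 30 under another setting.

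Samples share numbers across strains, and same-numbered libraries tended to deviate together (median correlation 0.201, against -0.0699 for different numbers, 131 of 181 pairs above 0.1). They did not do so throughout (lowest -0.429), and the numbers were not taken as pairs in the main model. Xist was high in 28 of 30 libraries numbered 1 to 4 and in 3 of 30 numbered 5 to 9. With the number as a replicate block 31 genes differed among strains, Eno3 in NOD was at 1.02, and the calls of Tpi1 in B6, Pkm, Pck1 and Gbe1 in WSB and Ugp2 in strain-129 ended. Hk2, Hk3, Eno3 and Pck2 rested on the fewest reads.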
